A study of Mus musculus with 2 samples.

Results

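The 42 genes described here serve protein folding, translocation, quality control and stress signalling in the endoplasmic reticulum (ER). They were found by matching their symbols in the feature list of the matrices, which holds 27998 genes, and all 42 were present. The data were single-cell RNA-seq counts of unique molecular identifiers (UMIs) from ileal epithelium of C57BL/6 mice aged 8 weeks, in 1 library of wild-type (WT) mice and 1 library of mice lacking TIPE0, the protein of the gene Tnfaip8 (Tipe0-/-), each pooled from several mice. The study compared the genotypes in the cells that line the crypts and villi. With 1 library per genotype there was no replicate, so no test was run, and every interval is an exact 95% interval that covers counting error only.

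In the secretory pathway, proteins enter the ER through the Sec61 channel, lose their signal peptide, and fold with the help of chaperones and disulfide isomerases. When unfolded chains accumulate, the sensors IRE1 (in the gut epithelium also its close relative IRE1-beta), PERK and ATF6 start the unfolded protein response, which raises the folding and degradation machinery through the transcription factors XBP1, ATF6 and ATF4. Goblet cells, which make large disulfide-linked mucins, and Paneth cells, which make antimicrobial peptides, are the classic secretory cells of the ileum, and enterocytes are the absorptive ones.

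Depth per cell was alike over the whole libraries, at a median of 7760 UMIs over the 3402 WT cells and 7307.5 over the 2006 Tipe0-/- cells. Within the cell classes named below it was alike in goblet-like cells (11084 and 11083). It differed in Paneth-like (20981.5 and 25782), tuft-like (12087 and 16707) and cycling-like cells (7247.5 and 5647). Mitochondrial genes took 6.59% of WT and 8.56% of Tipe0-/- UMIs. The part of depth or mitochondrial share in the genotype ratios was not tested. In total 38127808 UMIs were counted in WT and 23897126 in Tipe0-/-. Tnfaip8, the targeted gene, had 372 UMIs in WT (9.76 CPM, the gene's UMIs scaled to a library total of 1000000) and 57 UMIs in Tipe0-/- (2.39 CPM), a log2 ratio of -2.02 (-2.46 to -1.63). The libraries shared 9 cell barcodes. Cells were clustered without the 42 genes, and clusters were named from fixed markers, giving goblet-like (734 WT and 513 Tipe0-/- cells), Paneth-like (282 and 140), enterocyte-like (945 and 463), tuft-like (160 and 50), stem-like (322 and 265), cycling-like (724 and 484) and lymphocyte-like cells (92 and 17), with 1 cluster left unnamed. Muc2 and Lyz1 were among the naming markers, so their levels describe the classes and do not test the names. Muc2, the main intestinal mucin, stood at 3612 CPM in WT goblet-like cells against 263 in enterocyte-like cells, and Lyz1, the Paneth cell lysozyme, at 13456 CPM in WT Paneth-like cells against 231 in goblet-like cells.

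Part of the promoter sequence of these genes is shown because the unfolded protein response acts through short elements that can be read in it. A promoter was available for 33 of the 42 genes (36 entries) among 32851 RefSeq promoters on GRCm38.p6, each running from 250 bases before to 50 bases after the transcript start. Ern2, Atf6, Creb3l1, Hyou1, Manf, Sec61a1, Ssr2, Derl1 and Kdelr2 had no entry. Both strands were searched for the ER stress response element (ERSE; CCAAT, any 9 bases, CCACG), for ERSE-II (ATTGG, any 1 base, CCACG) and for the unfolded protein response element in the form TGACGTGG, whose reverse complement also holds the letters CCACG. ERSE stood in 8 of the 36 member promoters (22.2%) and in 39 of all 32851 (0.119%). The 9 matches, in Hspa5, Calr, Derl3, Hsp90b1 (2 matches), Canx, Pdia6, Dnajc3 and Syvn1, are shown on the strand that carries the motif, with its fixed letters in capitals and 8 bases on each side:
Hspa5, chr2:34772017-34772051, + strand: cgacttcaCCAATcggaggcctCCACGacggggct
Calr, chr8:84847067-84847101, + strand: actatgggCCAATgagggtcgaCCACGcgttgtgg
Derl3, chr10:75893234-75893268, - strand: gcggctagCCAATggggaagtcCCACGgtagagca
Hsp90b1, chr10:86705630-86705664, - strand: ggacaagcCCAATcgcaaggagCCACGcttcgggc
Hsp90b1, chr10:86705525-86705559, + strand: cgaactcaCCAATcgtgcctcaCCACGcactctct
Canx, chr11:50325792-50325826, - strand: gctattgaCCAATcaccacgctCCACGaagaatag
Pdia6, chr12:17266483-17266517, + strand: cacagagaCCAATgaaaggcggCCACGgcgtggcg
Dnajc3, chr14:118937819-118937853, + strand: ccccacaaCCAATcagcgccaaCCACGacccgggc
Syvn1, chr19:6046524-6046558, + strand: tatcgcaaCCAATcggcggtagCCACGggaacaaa

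Most of these carriers were chaperones of the ER lumen and membrane. ERSE-II stood in 2 member promoters (5.56%), those of Herpud1 and Dnajb11, and in 12 of all promoters (0.0365%). In Herpud1, a membrane protein of the degradation machinery, the match lay 52 bases before the start:
Herpud1, chr8:94386369-94386395, + strand: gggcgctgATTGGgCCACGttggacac

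TGACGTGG stood in 2 member promoters (5.56%), those of Txndc5, a disulfide isomerase, and Kdelr3, a receptor that returns escaped ER proteins, and in 222 of all promoters (0.676%). Among promoters of the other ER and secretory pathway genes it stood in 7 of 108 (6.48%), and ERSE in 1 of 108. Neither of these promoters held ERSE or ERSE-II as spelled here. The 250 bases before the start are shown for both genes and for Hspa5, which encodes the chaperone BiP. They run in the direction of the gene, with the matched letters in capitals. Txndc5 and Kdelr3 were among the members that differed most between goblet-like and enterocyte-like cells, and Hspa5 was not. Of the other members called higher in goblet-like cells below, Pdia6 held ERSE and Pdia5 none of these elements, and Ern2 and Creb3l1 had no entry. A link between element and cell class was not tested. The start is that of the RefSeq entry. By the gene spans used here, all of the Txndc5 stretch and part of the Hspa5 stretch lie inside the annotated gene. In Kdelr3 the match reads on the opposite strand:
Hspa5, chr2:34771840-34772089, + strand: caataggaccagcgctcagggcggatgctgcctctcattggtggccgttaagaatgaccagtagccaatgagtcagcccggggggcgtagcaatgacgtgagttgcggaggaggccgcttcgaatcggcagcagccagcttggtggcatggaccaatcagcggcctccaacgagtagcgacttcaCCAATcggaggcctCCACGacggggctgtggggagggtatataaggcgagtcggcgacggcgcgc
Txndc5, chr13:38527915-38528164, - strand: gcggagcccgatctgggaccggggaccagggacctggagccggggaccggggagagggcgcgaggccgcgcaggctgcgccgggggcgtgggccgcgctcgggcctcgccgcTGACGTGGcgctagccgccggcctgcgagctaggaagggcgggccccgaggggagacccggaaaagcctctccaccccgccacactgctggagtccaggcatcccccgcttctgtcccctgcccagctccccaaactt
Kdelr3, chr15:79516158-79516407, + strand: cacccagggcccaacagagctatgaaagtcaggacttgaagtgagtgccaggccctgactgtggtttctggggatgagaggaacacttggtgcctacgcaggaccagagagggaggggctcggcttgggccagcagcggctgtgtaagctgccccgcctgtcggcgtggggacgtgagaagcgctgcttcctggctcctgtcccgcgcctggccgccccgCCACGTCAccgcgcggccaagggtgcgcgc

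A match is a description of letters in the sequence and was not tested as a binding site.

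**Figure D1:**
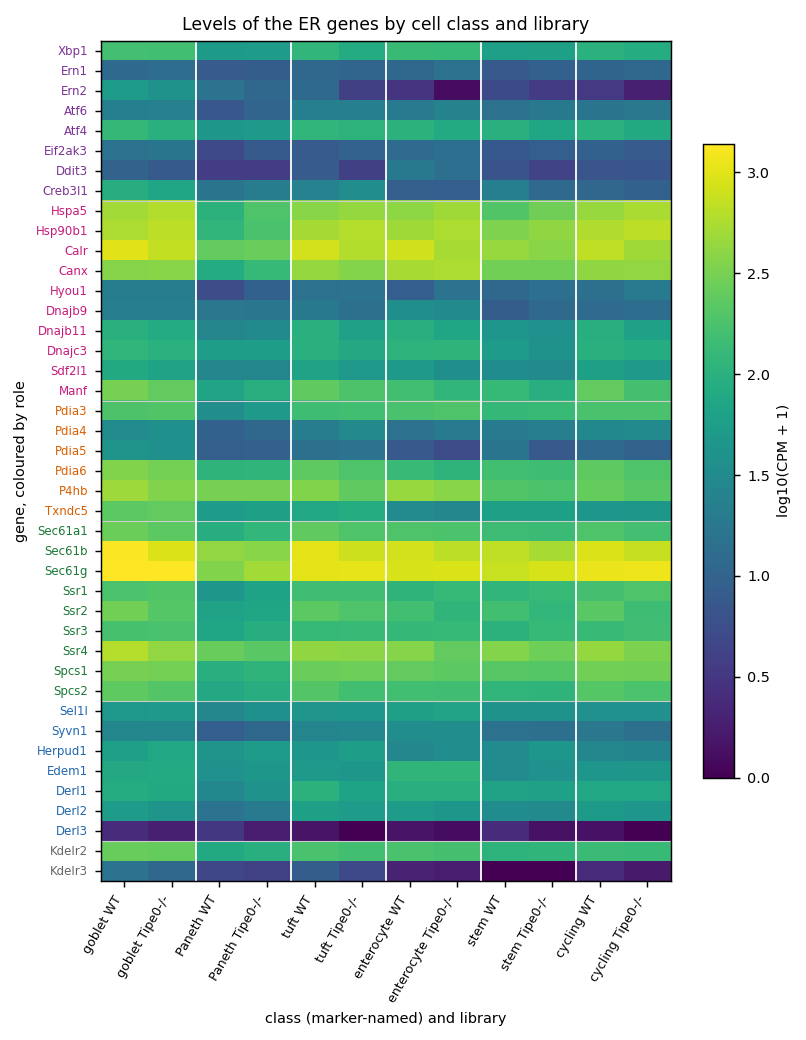
Level of each of the 42 genes (rows, coloured by role) in 6 cell classes of each library (columns), as log10 of CPM plus 1. The WT and Tipe0-/- columns of a class look alike, the Paneth-like columns are the darkest for most genes, and Ern2, Creb3l1, Pdia5, Txndc5 and Kdelr3 stand out in the goblet-like columns.

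Goblet-like cells gave the largest share of their UMIs to the 42 genes among the named classes, and Paneth-like cells the smallest. Of all UMIs in goblet-like cells, 1.03% (1.02 to 1.03) came from these genes in WT and 0.915% (0.909 to 0.922) in Tipe0-/-. In enterocyte-like cells the share was 0.744% (0.738 to 0.750) and 0.686% (0.678 to 0.694), and in stem-like cells 0.532% and 0.519%. Per cell, the middle 50% of WT goblet-like cells lay between 0.835% and 1.26% and that of WT enterocyte-like cells between 0.529% and 0.867%, so the cells of both classes overlapped in part.

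Paneth-like cells stood at 0.314% (0.310 to 0.318) in WT and 0.363% (0.357 to 0.369) in Tipe0-/-. The 20 genes with most UMIs in the data, among them defensins, Reg3b and Reg3g, took 60.8% of all UMIs of WT and 50.9% of Tipe0-/- Paneth-like cells, against 17.0% and 16.1% in goblet-like cells. Without those 20 genes and the mitochondrial genes in the total, the share in Paneth-like cells was 0.805% in WT and 0.743% in Tipe0-/-, above the stem-like share of 0.606% and 0.604%, and the order of the genotypes turned. In molecules, a WT Paneth-like cell held on average 74.7 UMIs of the 42 genes, between the 65.7 of an enterocyte-like and the 132 of a goblet-like cell. At the level of single genes, 27 of the 42 had their highest CPM among 6 classes in goblet-like cells in both libraries (64.3%), against 4.36% of 11665 genes tested. In Paneth-like cells 28 had their lowest CPM in both (66.7%), near the 59.7% of all genes.

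Between goblet-like and enterocyte-like cells the largest differences were those of Ern2, Kdelr3, Creb3l1, Txndc5 and Pdia5, and the main chaperones differed less. A gene was called higher when its log2 ratio was at least 1 above the median of all genes tested in both libraries, and called lower when it was at least 1 below it in both. That median was 0.38 in WT and 0.32 in Tipe0-/-. Of 41 members with at least 50 UMIs, 6 were called higher, where 16.1% of all 10615 genes tested were, and 1 was called lower, where 14.6% of all genes were. The members' own median log2 ratio was 0.39 in both libraries. The share called higher was near that of all genes, and the share called lower was below it. These values depended on the clustering. With 2000 variable genes chosen by variance stabilization, 9 members were called higher (14.1% of genes) and 0 lower (12.1%). The members' median then lay 0.51 and 0.47 above that of all genes. Ern2 and Kdelr3 reached 50 UMIs only through goblet-like cells, where they were high, so their ratios are given as a description. Most UMIs of the goblet-like class (6628391 of 9414048 in WT and 6036642 of 7648335 in Tipe0-/-) came from its cluster 0. Muc2 was lower there (1562 and 1847 CPM) than in the other goblet-like clusters, so the class values mostly describe these cells. Among the 10 leading genes of cluster 0, such as Mt3, Creb3l1, Spdef and Dll1, 1 was a goblet marker. Cycling markers summed to 1330 and 1431 CPM in goblet-like, 2117 and 1989 CPM in cycling-like and 114 and 122 CPM in enterocyte-like cells. The class was therefore a mix, and its ratios are not those of Muc2-rich goblet cells alone.

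The largest ratio belonged to Ern2 (chr7:122169893-122186207, - strand), which encodes IRE1-beta, the form of the IRE1 sensor found in mucosal epithelium. Ern2 had 508 UMIs in WT goblet-like cells (54.0 CPM, 49.4 to 58.9) and 309 in Tipe0-/- ones (40.4 CPM, 36.0 to 45.2), and 17 UMIs (2.04 CPM) and 1 UMI (0.264 CPM) in enterocyte-like cells. The log2 ratio was 4.69 (4.03 to 5.52) in WT and 6.68 (4.77 to 12.57) in Tipe0-/-, the latter resting on 1 UMI. Paneth-like cells lay between, at 14.9 and 10.4 CPM. After thinning each cell to 3000 UMIs, 17.3% of WT and 14.04% of Tipe0-/- goblet-like cells held an Ern2 UMI (46.3% and 40.4% before thinning). In lymphocyte-like cells, which should lack the gene, 0 of 92 and 0 of 17 cells held a UMI, which allows a share of cells with a UMI of up to 3.26% and 17.6% (3 cells of each total). Median depths were 11084 and 11083 UMIs per goblet-like cell and 4492 and 4315 per lymphocyte-like cell.

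Ern1, which encodes the IRE1-alpha sensor found in most cells, showed no such contrast. Ern1 stood at 10.9 and 12.2 CPM in goblet-like, 10.4 and 13.98 CPM in enterocyte-like and 7.01 and 7.48 CPM in Paneth-like cells of WT and Tipe0-/-. Its goblet-like over enterocyte-like log2 ratio was 0.07 (-0.36 to 0.50) in WT and -0.21 (-0.70 to 0.31) in Tipe0-/-. The intervals of these ratios hold 0 in both libraries.

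Creb3l1 (chr2:91982328-92024502, - strand), an ER-anchored transcription factor that is released by cleavage, was also goblet-biased. Its level was 90.5 CPM (84.5 to 96.8) in WT and 70.6 CPM (64.8 to 76.8) in Tipe0-/- goblet-like cells, 7.91 and 7.65 CPM in enterocyte-like cells, and 15.4 and 19.8 CPM in Paneth-like cells. The log2 ratios were 3.51 (3.15 to 3.90) and 3.18 (2.67 to 3.80).

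Txndc5, Pdia5 and Pdia6, which form and shuffle disulfide bonds, and Kdelr3 made up the rest of the set. Txndc5 (chr13:38500079-38528824) stood at 222 CPM in WT and 245 CPM in Tipe0-/- goblet-like cells and at 31.8 and 27.2 CPM in enterocyte-like cells, log2 ratios of 2.80 (2.62 to 2.997) and 3.16 (2.88 to 3.47). Pdia5 stood at 41.5 and 36.6 CPM against 6.47 and 4.22 CPM, log2 ratios of 2.67 and 3.07. Pdia6, which was nearer the threshold, stood at 351 and 302 CPM against 135 and 110 CPM, log2 ratios of 1.38 and 1.46. The other 3 isomerases lay lower, Pdia4 at 1.15 and 0.99, Pdia3 at 0.10 and 0.06, and P4hb, the isomerase with the highest level in the whole libraries (363 and 297 CPM), at 0.09 and -0.11.

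Kdelr3 (chr15:79516411-79527739) had 137 and 77 UMIs in goblet-like cells (14.6 and 10.1 CPM) and 9 and 3 UMIs in enterocyte-like cells (1.08 and 0.791 CPM). The log2 ratios were 3.68 (2.79 to 4.91) and 3.46 (2.07 to 5.98). Its relative Kdelr2 was present in every class and differed less, at 258 and 252 CPM against 171 and 165 CPM, log2 ratios of 0.59 and 0.61.

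With the clustering used here, Hspa5, Hsp90b1 and Calr lay near the median gene. Hspa5 stood at 507 CPM (493 to 522) in WT and 596 CPM (579 to 614) in Tipe0-/- goblet-like cells and at 407 (394 to 421) and 495 CPM (473 to 518) in enterocyte-like cells, log2 ratios of 0.32 and 0.27. Hsp90b1, the ER form of HSP90, differed by 0.21 and 0.24, and Calr, the soluble lectin chaperone calreticulin, by 0.30 and 0.39. Canx, the membrane-bound lectin chaperone calnexin, was lower in goblet-like cells in both libraries, at 368 and 379 CPM against 544 and 561 CPM (log2 ratios of -0.56 and -0.57). In Paneth-like cells Hspa5 stood at 105 and 190 CPM. Among the 10 chaperones and cofactors none was called in either direction, and Hyou1, a chaperone of the HSP110 type, had the largest WT ratio but the libraries differed, at 1.36 in WT and 0.45 in Tipe0-/-. Manf, a secreted ER stress protein, had the largest ratio of this role by the lower of both libraries, at 1.02 and 1.09.

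All 9 members of the translocon and signal peptidase lay above the median gene in both libraries, by small amounts, with log2 ratios from 0.32 (Sec61a1 in Tipe0-/-) to 0.92 (Ssr2 in WT), and none was called. Sec61g and Sec61b, small subunits of the channel, had the highest levels of the role, Sec61g at 1361 and 1385 CPM and Sec61b at 1310 and 957 CPM in goblet-like cells. In the degradation machinery the picture was the opposite with this clustering, with 5 of 6 members tested below both 0 and the median gene in both libraries. Edem1, a mannosidase-like factor that marks glycoproteins for disposal, stood at -0.53 and -0.45. Sel1l and Syvn1, which form the ligase complex, stood at -0.37 and -0.45 and at -0.34 and -0.35. Derl1 (-0.13 and -0.23) and Derl2 (-0.01 and -0.15) lay near 0. Ratios this small were not checked for a change of sign under other clusterings. Herpud1 was the exception at 1.08 and 1.09.

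The other arms of the stress response varied less than Ern2 and Creb3l1. Xbp1, the transcription factor downstream of IRE1, stood at 161 CPM (153 to 169) and 153 CPM (145 to 163) in goblet-like, 129 and 126 CPM in enterocyte-like and 49.98 and 52.6 CPM in Paneth-like cells, a goblet-like over enterocyte-like log2 ratio of 0.31 and 0.29. Gene counts do not show the splicing of Xbp1 mRNA. Atf6 stood at 21.8 and 22.1 CPM in goblet-like, 18.9 and 24.3 CPM in enterocyte-like and 6.12 and 9.61 CPM in Paneth-like cells. Eif2ak3, which encodes PERK, stood at 14.3 and 15.4, 11.4 and 12.9, and 3.88 and 6.68 CPM in the same order.

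Atf4, which PERK signalling favours at translation, stood at 123 and 96.9 CPM in goblet-like, 102 and 81.3 CPM in enterocyte-like and 45.2 and 48.6 CPM in Paneth-like cells. Ddit3, which encodes the late stress factor CHOP, was the 1 member called lower in goblet-like cells, at 8.92 and 6.67 CPM against 17.5 and 13.2 CPM in enterocyte-like cells (log2 ratios of -0.97 and -0.98). It was lower still in Paneth-like cells, at 2.69 and 2.67 CPM.

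**Figure D2:**
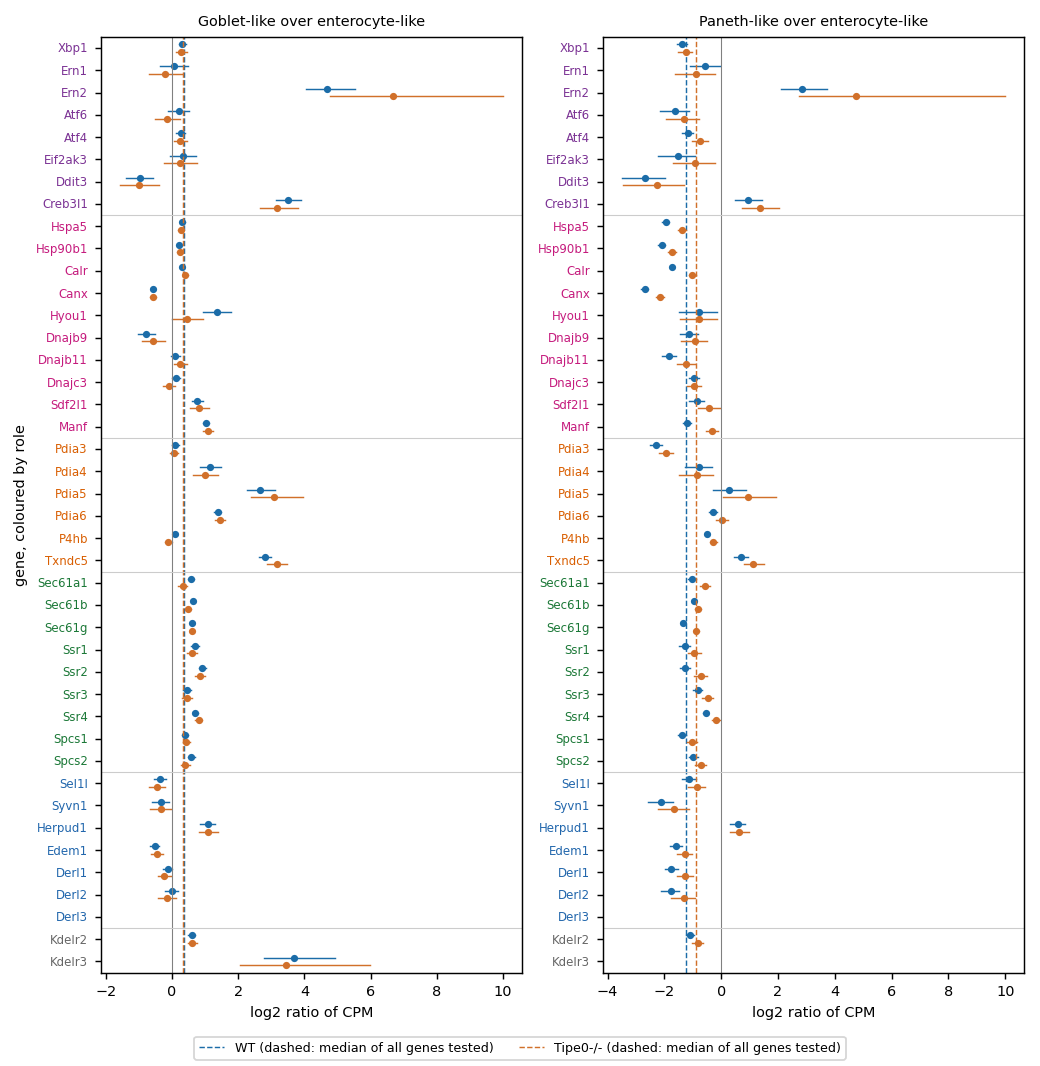
Log2 ratio of CPM of goblet-like over enterocyte-like cells (left) and Paneth-like over enterocyte-like cells (right) for each member with at least 50 UMIs, in WT (blue) and Tipe0-/- (orange). Points are the ratios, bars the exact 95% counting intervals (drawn up to 10), the grey line 0 and dashed lines the median of all genes tested. Ern2, Creb3l1, Pdia5, Txndc5 and Kdelr3 lie far to the right on the left panel in both libraries.

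Between Paneth-like and enterocyte-like cells the median of all genes tested was itself low, at -1.25 in WT and -0.91 in Tipe0-/-, beside the 20 most abundant genes named above. Against that median, 5 of 40 members tested were called higher, where 18% of 9633 genes were, and 3 were called lower, where 17.8% were. Those called higher were Ern2 (log2 ratios of 2.84 in WT and 4.74 in Tipe0-/-, the latter against 1 UMI), Creb3l1 (0.95 and 1.35), Txndc5 (0.70 and 1.13), Pdia5 (0.29 and 0.95) and Herpud1 (0.57 and 0.63). Ern2 reached the minimum UMI count only through Paneth-like cells, where it was high (100 and 39 UMIs, against 17 and 1). Its ratios are therefore given as a description. Read against 0 and not against the median gene, Ern2 alone passed a log2 ratio of 1 in both libraries, where 6.77% of genes did. In that reading 14 members were at least 1 below 0 in both, where 44.6% of genes were.

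Of these 5 genes, 4 were also called higher in goblet-like cells, and Herpud1 was not. Herpud1 stood at 57.9 and 72.7 CPM in goblet-like, 40.7 and 52.6 CPM in Paneth-like and 27.3 and 34.0 CPM in enterocyte-like cells. The 3 members called lower in Paneth-like cells were Ddit3 (-2.67 and -2.25), Canx (-2.70 and -2.16) and Pdia3 (-2.29 and -1.94), which works with the lectin chaperones Canx and Calr. Ddit3 reached the minimum UMI count only through enterocyte-like cells, where it was high (146 and 50 UMIs, against 18 and 10). Its ratios, too, are given as a description. Derl3 and Kdelr3 had under 50 UMIs in these classes and were not tested. In the same cells Muc2 stood at 621 and 609 CPM, 17.2% and 16.0% of its goblet-like level, while Ern2 stood at 27.6% and 25.8%, Creb3l1 at 17.0% and 28.0%, and Herpud1 at 70.4% and 72.4% of theirs. The part of goblet cell RNA in these values was not tested.

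Within the goblet-like class, the cells with the highest Muc2 level gave a larger share of their UMIs to the members. Cluster 7 (198 WT and 127 Tipe0-/- cells) was led by Sval1, Zg16, Fcgbp, Clca1 and Tff3, and cluster 0 (418 and 323 cells) by Mt3, Creb3l1, Spdef and Dll1, with Ern2 further down its list, although neither member was used to cluster. Muc2 stood at 12265 and 16794 CPM in cluster 7 and at 1562 and 1847 CPM in cluster 0. This comparison was chosen after the values were seen. The clusters differed in depth, with medians of 5155.5 and 4896 UMIs per cell in cluster 7 and 15288.5 and 17463 in cluster 0, and the part of depth was not tested. In cluster 7, 1.30% of WT and 1.12% of Tipe0-/- UMIs came from the 42 genes, against 0.974% and 0.893% in cluster 0. In molecules the order was the reverse, at 79.0 and 61.0 UMIs of the 42 genes per cell in cluster 7 and 154 and 167 in cluster 0.

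Of 41 members tested, 16 were called higher in cluster 7, where 10.2% of 9798 genes were, and 0 were called lower, where 8.78% were. All but Pdia4 lay above the median gene in both libraries, and 33 lay above 0 in both. The median of all genes was -0.52 in WT and -0.49 in Tipe0-/-, and that of the members was 0.39 and 0.36. Averaging CPM over cells, which weighs deep and shallow cells alike, gave 13 called higher (10.0% of genes) and 0 called lower (9.98%).

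The members with the largest cluster 7 over cluster 0 ratios came from several roles. Kdelr3 stood at 39.0 and 24.6 CPM against 10.9 and 9.28 CPM (log2 ratios of 1.85 and 1.43), Eif2ak3 at 30.7 and 37.6 CPM against 10.9 and 10.9 CPM (1.51 and 1.80), and Ern2 at 119 and 86.7 CPM against 43.6 and 37.9 CPM (1.45 and 1.201). Among the sensors, the smallest ratios were those of Ern1 (0.58 and 0.13) and Atf6 (0.21 and 0.34). Txndc5 stood at 438 and 477 CPM against 192 and 222 CPM (1.19 and 1.10), Dnajb9, a cofactor of BiP that also holds IRE1 in check, at 35.7 and 41.9 CPM against 16.4 and 17.2 CPM (1.13 and 1.30), and, further down the order, Hspa5 at 766 and 927 CPM against 461 and 551 CPM (0.73 and 0.75).

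Hsp90b1 and Calr, in contrast, differed little between the goblet-like clusters in CPM, by 0.04 and 0.01 and by 0.08 and 0.04. Edem1, which was lower in goblet-like than in enterocyte-like cells, was higher in cluster 7 than in cluster 0 (136 and 129 CPM against 63.5 and 75.9 CPM). Ddit3 was called higher as well, but its libraries stood apart, at 9.95 and 21.7 CPM against 7.24 and 4.64 CPM (0.50 and 2.25).

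A gradient of another kind lay within the enterocyte-like class. Cluster 1 (429 and 220 cells) was led by Apoa4, Apoa1 and Slc6a19, and cluster 5 (327 and 163 cells), which held fewer of the enterocyte markers (5 of 15 against 13 of 15), by Slc40a1, Cldn8 and Edn2. This comparison, too, was chosen after the values were seen. The 42 genes took 0.943% and 0.848% of UMIs in cluster 5 and 0.589% and 0.557% in cluster 1. Of 39 members tested, 3 were called higher in cluster 5, where 11.8% of 8060 genes were, and 3 were called lower, where 12.4% were.

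The roles went different ways. All 9 members of the translocon and signal peptidase were above both 0 and the median gene in cluster 5 in both libraries, with log2 ratios from 0.48 to 1.76, and Ssr2 was called higher with 255 and 177 CPM against 75.1 and 65.8 CPM. Pdia6 (225 and 178 CPM against 68.9 and 64.6 CPM) and Hyou1 (12.7 and 23.0 CPM against 4.19 and 8.61 CPM) were called higher too. Hyou1 reached the minimum UMI count only through cluster 5, where it was high (38 and 33 UMIs, against 15 and 14). Its ratios are therefore given as a description. All 6 members of the degradation machinery that were tested lay below the median gene in both libraries, and Edem1, at 83.8 and 76.6 CPM against 140 and 145 CPM, was called lower. Dnajb9 (23.0 and 21.6 CPM against 48.5 and 38.7 CPM) and Ddit3 (12.7 and 9.75 CPM against 24.0 and 17.2 CPM) were the other 2 called lower.

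**Figure D3:**
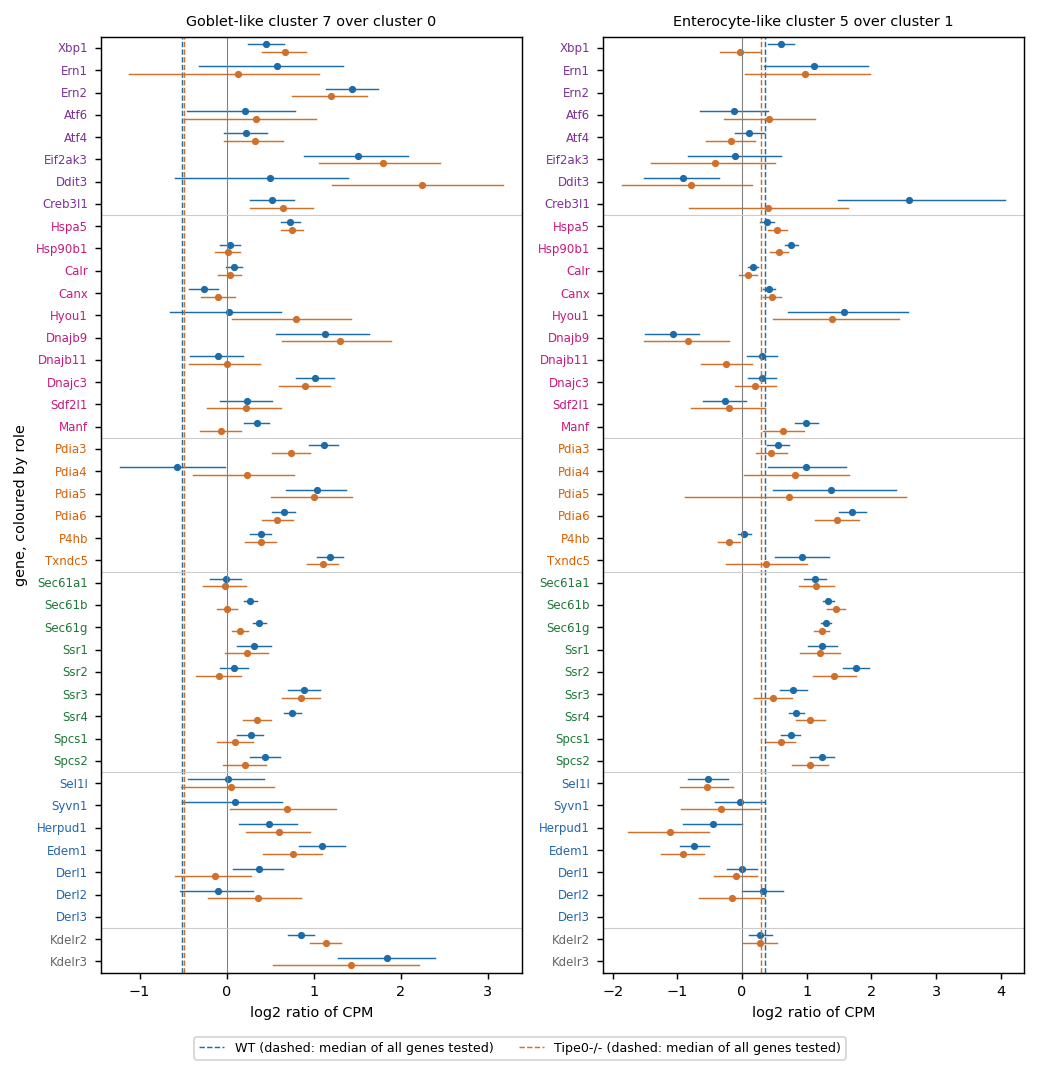
Log2 ratio of CPM of goblet-like cluster 7 over cluster 0 (left) and of enterocyte-like cluster 5 over cluster 1 (right) for each member with at least 50 UMIs, in WT (blue) and Tipe0-/- (orange), with exact 95% counting intervals, a grey line at 0 and dashed lines at the median of all genes tested. On the left all members but Pdia4 lie to the right of the dashed lines, and on the right the translocon members (green) do while the degradation members (blue) lie to their left.

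Between the genotypes, members lay on both sides of 0. A gene was called higher or lower when its log2 ratio of Tipe0-/- over WT lay at least 0.5 from the median of all genes tested, which was 0.15 in the whole libraries. Of the 42 members, 0 were called higher, where 6.22% of 11665 genes were, and 5 were called lower, where 8.51% were. The members' median was -0.05. The median of all genes was lower at higher levels, from 0.21 among 4287 genes under 10 CPM to 0.01 among 375 genes of at least 300 CPM. At each level the members lay lower, with a median of -0.32 for the 5 members under 10 CPM, -0.02 for 7 at 10 to 30 CPM (all genes 0.18), -0.06 for 11 at 30 to 100 CPM (0.11), -0.06 for 11 at 100 to 300 CPM (0.02) and -0.14 for the 8 of at least 300 CPM. Read against 0 and not against the median gene, 0 members were called higher and 1 was called lower, where 12.7% and 5.98% of genes were.

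The members called lower were Derl3, Calr, Ddit3, Ssr2 and Ssr4. Derl3 reached the minimum UMI count only through WT, where it was high, so its ratio is given as a description. Calr stood at 712 CPM (703 to 720) in WT and 527 CPM (518 to 537) in Tipe0-/-, a log2 ratio of -0.43 (-0.46 to -0.40). Ssr2 and Ssr4, subunits of the translocon-associated protein complex, stood at 190 and 146 CPM and at 426 and 328 CPM, log2 ratios of -0.38 and -0.37. Ddit3 stood at 8.73 CPM (7.82 to 9.72) and 6.49 CPM (5.51 to 7.59), a log2 ratio of -0.43 (-0.71 to -0.15).

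Derl3, a paralogue of the retrotranslocation factors Derl1 and Derl2 that plasma cells express strongly, had 58 UMIs in WT and 16 in Tipe0-/- (1.52 and 0.670 CPM), a log2 ratio of -1.15 (-2.08 to -0.37). It was densest in lymphocyte-like cells, at 35.3 CPM in WT (17 UMIs) and 43.2 CPM in Tipe0-/- (4 UMIs), and stood at 2.24 CPM or less in the epithelial classes. Lymphocyte-like cells were 2.70% of WT and 0.847% of Tipe0-/- cells. The 11 lymphocyte markers measured summed to 153 CPM in WT and 38.0 CPM in Tipe0-/-, all 11 lower in Tipe0-/-, and the 6 B and plasma cell markers measured to 32.5 and 16.3 CPM, all 6 lower. Their part in the Derl3 ratio was not tested.

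At the other end, Hyou1 had the highest ratio of the 42, at 12.04 CPM (10.96 to 13.2) in WT and 16.4 CPM (14.9 to 18.2) in Tipe0-/-, a log2 ratio of 0.45 (0.25 to 0.65). Herpud1 followed at 38.9 and 49.4 CPM (0.34, 0.23 to 0.46), then Hspa5 at 378 CPM (372 to 384) and 468 CPM (460 to 477; 0.31, 0.27 to 0.34), Txndc5 at 90.1 and 112 CPM (0.31, 0.24 to 0.38), Pdia4 at 21.5 and 26.4 CPM (0.30) and Hsp90b1 at 459 and 552 CPM (0.27, 0.23 to 0.30). None of these reached 0.5 above the median gene. In all, the counting interval lay above 0 for 12 members and below 0 for 17, and held 0 for 13, where it lay above 0 for 42.7% and below 0 for 15.1% of all genes. Relative to the median gene, 32 of the 42 members lay lower.

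Members of the same role lay on both sides of 0. Among chaperones and cofactors with ERSE in the promoter, Hspa5 and Hsp90b1 were higher and Calr and Dnajc3 (-0.16) lower in Tipe0-/-. Canx stood at 370 and 371 CPM (0.01, -0.03 to 0.04). Among isomerases, Txndc5 (0.31) and Pdia4 (0.30) stood against P4hb (363 and 297 CPM, -0.29) and Pdia6 (-0.12). Among channel and translocon subunits, Ssr1 (0.22), Ssr3 (0.16) and Sec61g (0.13) stood against Ssr2 (-0.38), Ssr4 (-0.37) and Sec61b (911 and 726 CPM, -0.33).

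Sensors and factors also lay on both sides. Atf6 (16.3 and 19.1 CPM) and Ern1 (9.34 and 11.05 CPM) had log2 ratios of 0.23 (0.05 to 0.40) and 0.24 (0.01 to 0.48). Ern2 (17.8 and 15.2 CPM, -0.23) and Atf4 (97.0 and 80.4 CPM, -0.27) lay below 0. Xbp1 (111 and 106 CPM), Creb3l1 (31.9 and 31.3 CPM) and Eif2ak3 (9.57 and 10.6 CPM) had intervals that held 0, with log2 ratios of -0.06, -0.03 and 0.15.

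The same genes were read within classes, which removes differences in the share of each class but not in the clusters inside a class. In all 6 classes the members' median lay below that of all genes, by 0.06 to 0.20 on the log2 scale. In goblet-like cells 0 of 41 members tested were called higher (5.82% of all genes) and 8 lower (6.17%), namely Ern2, Ddit3, Calr, P4hb, Sec61b, Ssr2, Ssr4 and Kdelr3. Cluster 0 made up 418 of 734 WT and 323 of 513 Tipe0-/- goblet-like cells. Ern2 and Kdelr3, which differed between goblet-like clusters, were lower in Tipe0-/- in each cluster, Ern2 at 43.6 and 37.9 CPM in cluster 0, 119 and 86.7 CPM in cluster 7 and 48.1 and 21.8 CPM in cluster 11, and Kdelr3 at 10.9 and 9.28, 39.0 and 24.6, and 11.4 and 4.35 CPM. The Ern2 intervals overlapped in cluster 0 (38.7 to 48.9 and 33.2 to 43.2) and cluster 7 (99.9 to 140 and 66.1 to 112). In cluster 11 they stood apart (37.9 to 60.2 and 13.3 to 33.6). The enterocyte marker Apoa1 stood at 1041 and 1481 CPM in cluster 11. In cluster 0 it stood at 16.4 and 16.9 CPM and in cluster 7 at 63.0 and 57.8 CPM. The part of enterocyte RNA in the Ern2 values was not tested. Kdelr3 in Tipe0-/- cluster 11 was near the 3.26 CPM of 3 UMIs. In enterocyte-like cells 1 of 39 was called higher (9.16%), Hyou1 at 7.79 and 14.8 CPM, and 7 lower (8.59%), namely Ddit3, Calr, Sdf2l1, Manf, Pdia5, Ssr2 and Ssr4. Pdia5 reached the minimum UMI count there only through WT, where it was high, so its ratio is a description. When the members were kept among the clustering genes, enterocyte-like clusters differed in their genotype makeup, with 394 WT and 67 Tipe0-/- cells in one and 52 and 159 in another, and the part of this makeup was not tested. In Paneth-like cells 0 of 39 were called higher (7.53%) and 4 lower (8.69%), namely Ern2, Dnajb9, Sec61b and Ssr4. Ern2 reached the minimum UMI count there only through WT (100 UMIs, against 39 in Tipe0-/-), so its ratio is a description.

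In cycling-like cells 0 of 39 were called higher (7.14%) and 4 lower (6.06%), namely Calr, Dnajb11, Manf and Ssr2. In stem-like cells 1 of 36 was called higher (6.67%), Dnajb9, and 2 lower (7.33%), Creb3l1 and Pdia5. Creb3l1 reached the minimum UMI count there only through WT (59 UMIs, against 29 in Tipe0-/-), so its ratio is a description. In the 160 WT and 50 Tipe0-/- tuft-like cells 2 of 34 were called higher (9.34%), Creb3l1 and Pdia4, and 4 lower (11.7%), Calr, Dnajb11, P4hb and Derl1. Goblet markers summed to 4373 CPM in WT and 6914 CPM in Tipe0-/- tuft-like cells, with 7 of 8 tested above 0, and Muc2 stood at 430 and 631 CPM. Their part in the ratio of the goblet-biased Creb3l1 was not tested.

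Of 34 members tested in all 6 classes, 16 lay below the class's median gene in every class and 3 (Hspa5, Hsp90b1 and Ssr1) above it in every class, where 15.9% and 13.4% of 5889 genes did. The 16 were Xbp1, Atf4, Calr, Dnajb11, Dnajc3, Sdf2l1, Manf, Pdia6, P4hb, Sec61a1, Sec61b, Ssr2, Ssr4, Spcs2, Derl1 and Derl2. The 6 classes came from the same 2 libraries and are not replicates of the genotype. Relative to 0, P4hb, Sec61b and Ssr4 were below it in every class, while Atf6, Hspa5, Hsp90b1, Pdia4, Sec61g, Ssr1 and Ssr3 were above it in every class. The median of all genes itself lay above 0 in every class, from 0.01 in tuft-like to 0.49 in Paneth-like cells. The share of all genes on the same side of 0 in every class was not counted. Hspa5 lay between 0.22 in tuft-like cells and 0.86 in Paneth-like cells (105 and 190 CPM).

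The Paneth-like ratios stood apart in scale, with a median of all genes of 0.49. The 20 most abundant genes took a smaller share of UMIs in Tipe0-/-, and median depth was 20981.5 UMIs in WT and 25782 in Tipe0-/-. The part of either in this scale was not tested. Calr, lower in 5 classes, was 0.12 above 0 in Paneth-like cells (245 and 267 CPM) and 0.36 below that class's median gene. In goblet-like cells Calr stood at 1006 and 709 CPM (-0.51, -0.55 to -0.46), in enterocyte-like cells at 820 and 539 CPM (-0.60, -0.68 to -0.53).

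**Figure D4:**
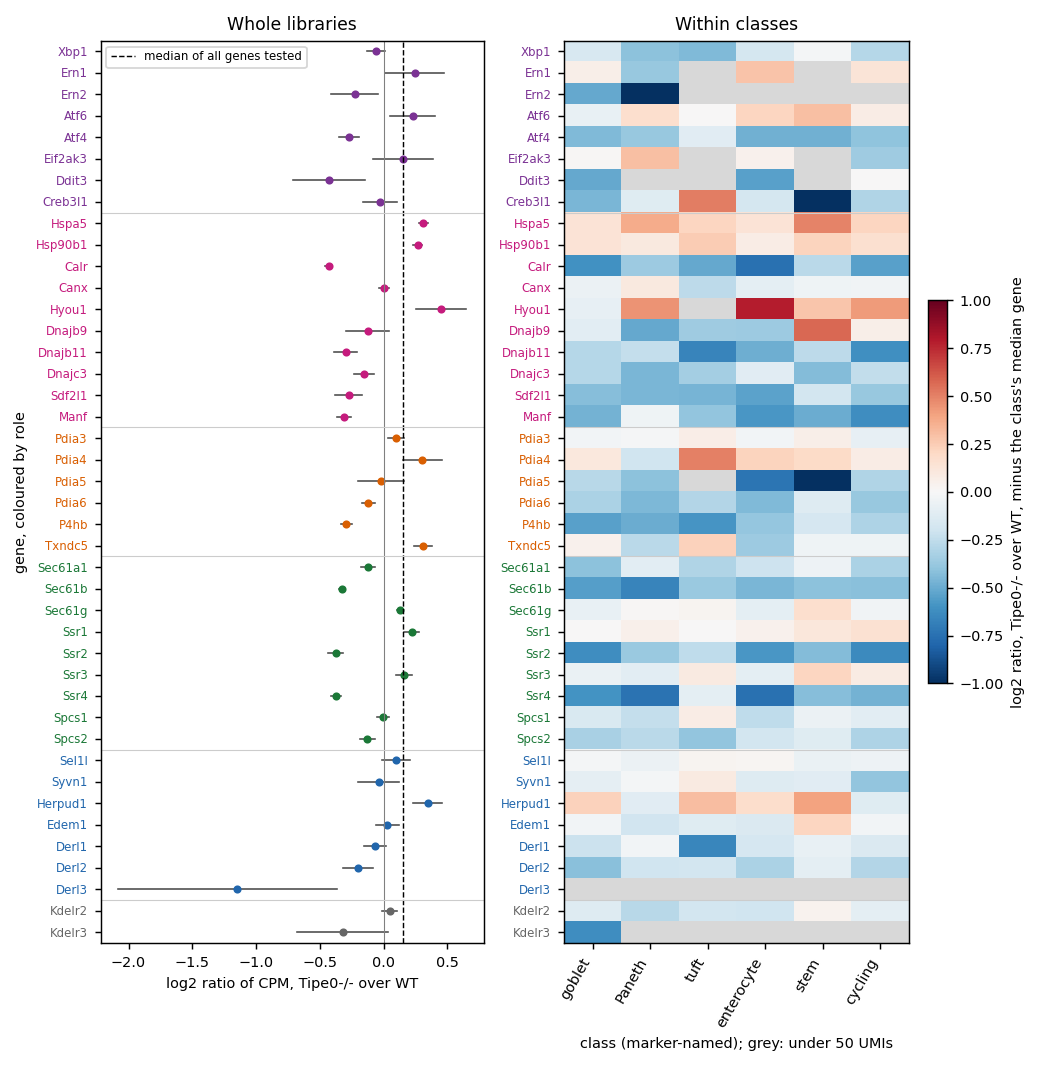
Left, log2 ratio of CPM of Tipe0-/- over WT for each member in the whole libraries, with exact 95% counting intervals, the grey line at 0 and the dashed line at the median of all genes tested (0.15). Right, the same ratio within 6 classes minus the median gene of the class, on a colour scale that ends at -1 and 1, with grey where under 50 UMIs were counted. Calr, Ssr2, Ssr4 and Sec61b are blue in every class shown and Hspa5 and Hsp90b1 red in every class.

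The direction of the genotype ratio went with the base composition of the transcripts. GC content was taken over the last 400 bases of the longest protein-coding transcript of each gene, or of its longest transcript where none was coding. This 3′ method counts the end of transcripts, and whether the reads came from the annotated end was not checked. Over the 42 members the Spearman correlation of the whole-library log2 ratio with that GC content was -0.66 (Pearson -0.59), and over 11648 genes tested that had a transcript it was -0.30. These points share the same 2 libraries, and genes are not replicates. In goblet-like cells the correlation was -0.71 over 41 members and -0.34 over all genes, in enterocyte-like cells -0.60 and -0.26, and in Paneth-like cells -0.26 and -0.22. Transcript length went the other way, at 0.54 over the 42 members and 0.20 over all genes.

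All genes were also split by 3′ GC content into 5 groups of about equal size. The group with the lowest GC content (16.3% to 35.8%) had a median log2 ratio of 0.28, and the group with the highest (51% to 77.5%) one of 0.02. The members in these groups, 8 and 7 genes, had medians of 0.16 and -0.31. By name, Txndc5 (34.0% GC), Pdia4 (35.0%), Hspa5 (37.3%) and Hsp90b1 (39.0%) were higher in Tipe0-/-, and Ssr4 (50.3%), P4hb (51%), Ssr2 (52.0%), Manf (55.8%) and Ddit3 (57.8%) lower. Hyou1, at 46.5% GC and a log2 ratio of 0.45, stood off this relation, as did Calr at 45.8% GC and -0.43. Read against genes of like 3′ GC content, 0 members were called higher (5.82% of genes) and 2 lower (7.72%) in the whole libraries. In goblet-like cells 0 were called higher (5.26%) and 3 lower (5.55%), near the shares of all genes. The members' median less that of the compared genes was -0.20 in the whole libraries and -0.20 in goblet-like cells, and -0.20 and -0.16 when all genes were compared. The part of base composition in these ratios was not tested further.

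**Figure D5:**
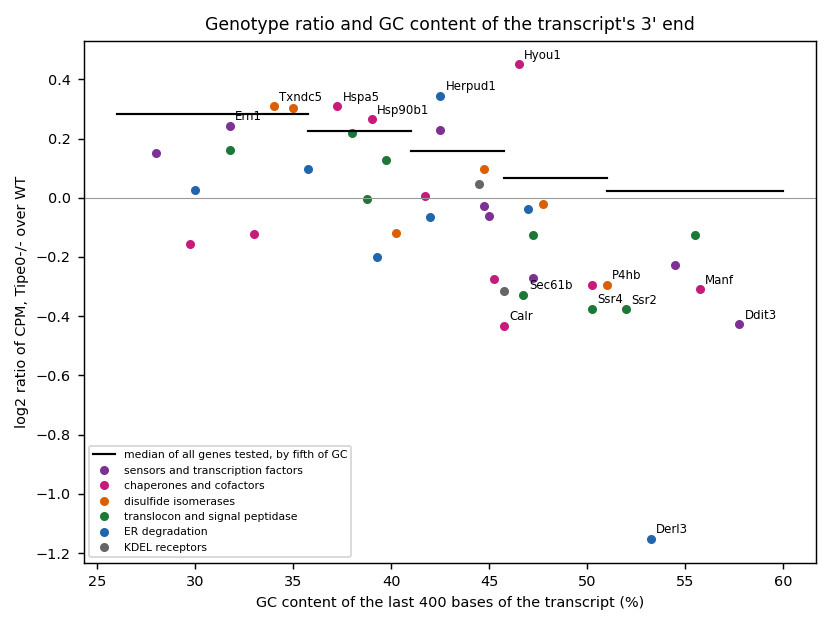
Log2 ratio of CPM of Tipe0-/- over WT in the whole libraries against the GC content of the last 400 bases of the transcript, for the 42 members (points, coloured by role), with the median of all genes tested in each of 5 groups by GC content (black lines, the outer ones shortened to just beyond the range of the members). The members and the black lines slope downward from left to right.

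Other genes of the ER and the early secretory pathway, 116 of them in the matrices, gave a wider frame. Ratios of single genes from this list are a description, since a gene can reach the minimum UMI count through the side where it is high. Between goblet-like and enterocyte-like cells 12 of 110 tested were called higher and 9 lower, with the largest ratios in Agr2, a disulfide isomerase needed for mucin folding (log2 ratios of 5.48 in WT and 6.16 in Tipe0-/-), Creb3l4, a relative of Creb3l1 (5.02 and 7.41), and Nupr1, a stress-induced chromatin protein (4.88 and 3.77). Between Paneth-like and enterocyte-like cells 14 of 106 were called higher and 9 lower, led by Nupr1 (6.81 and 6.27), Creb3l4 (3.60 and 5.95) and Fkbp11, a peptidyl-prolyl isomerase (2.97 and 3.09). In both comparisons and both directions the share called lay below that of all genes.

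Between the genotypes 1 of 111 was called higher, where 6.22% of all genes were, and 8 were called lower, where 8.51% were. The gene called higher was Fkbp7 (1.08, 0.28 to 1.92). The lowest ratios were those of Chac1 (-1.47, -2.32 to -0.75) and Atf3 (-0.84, -1.19 to -0.51), both targets of the integrated stress response, and Fkbp11 (-0.81, -0.96 to -0.67), followed by Nupr1 at -0.66. The wide intervals of Chac1 and Fkbp7 reflect few UMIs. Cebpb, a transcription factor of the same response list, had a ratio of 0.65 (0.51 to 0.79), under 0.5 above the median gene. Eif2ak4, an amino acid sensor kinase, followed at 0.61. A list of 12 genes that respond to tissue dissociation summed to 599 CPM in WT and 584 CPM in Tipe0-/-, with 5 of 10 tested above 0.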

How the data were processed

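The deposited files hold UMI counts per gene and cell that the authors made with Cell Ranger from 10x 3′ libraries on mm10, 1 matrix per genotype, without depth normalization between them. All deposited cells were used. Clustering used Seurat 5.3.0 under R 4.3.3 (14 principal components, resolution 0.8) and 525 variable genes. Barred from the variable genes were the members, the other pathway genes and the 117 genes of the study's genotype comparison found in the matrices. Clusters were named from fixed marker lists. Counts were summed per class and library in Python 3.11.15 (numpy 2.4.6, scipy 1.17.1) and given as CPM with exact Poisson intervals, and ratios (0.5 added to each sum, at least 50 UMIs) with exact binomial intervals. With 1 library per genotype no p-value was computed, and libraries differed in mice as well as genotype, which cannot be told apart. The members, lists and thresholds were chosen with earlier results of these data known. Every member could be named, with fixed members given in full, beside the extremes of each role and the 3 largest of the other pathway genes. GC content was read from GENCODE vM21 transcripts. Scrublet, run in Scanpy 1.11.5, called 15 and 3 cells, too few to be used, so no doublets were removed. The interval method was tested on simulated data. Markers Ighm, Igkc, Igha, Iglc2 and Trdc and the pathway gene Hm13 were not analysed here.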

Additional observations from a re-analysis of the deposited data

Results flagged for a closer look

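Dnajb9 and Creb3l1 were called in opposite directions in different classes. The log2 ratio of Dnajb9 in Tipe0-/- over WT was 0.62 in stem-like cells, where it was called higher, and -0.029 in Paneth-like cells, where it was called lower against that class's median gene of 0.49. For Creb3l1 the ratio was 0.52 in tuft-like cells and -0.97 in stem-like cells. In stem-like cells it reached the minimum UMI count only through WT, where it was high. Goblet markers were also higher in Tipe0-/- tuft-like cells (4373 and 6914 CPM summed), and their part was not tested. These differences between classes were not tested, since each rests on 1 library per genotype.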

How the results depend on the processing

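No paired analysis was possible because each genotype had 1 library, and for the same reason no replicate could be left out. No member ratio at least 1 from 0 between classes or clusters, or 0.5 from 0 between genotypes, changed sign under any alternative run. Runs with no filter, with at least 200 UMIs, relative to 0 or relative to like 3′ GC content leave the ratio itself unchanged. They could not show a change of sign. Called ratios nearer to 0 were not checked for a change of sign. The counts of members called moved as follows, and the cause was not tested. The percent of all genes called in the same way is given in brackets. For goblet-like over enterocyte-like cells, 0 were called lower with CPM averaged over cells (14.3%) or relative to 0 (9.69%). With 2000 variable genes by variance stabilization 0 were called lower (12.1%) and 9 higher (14.1%). With members kept among the variable genes 2 were called lower (16.3%). For Paneth-like over enterocyte-like cells, 5 were called lower with no filter (16.9%), and 1 higher and 14 lower relative to 0 (6.77% and 44.6%). For Tipe0-/- over WT in the whole libraries, 1 was called lower relative to 0 (5.98%). Relative to genes of like 3′ GC content, a setting chosen after seeing the data, 2 were called lower (7.72%). The GC setting also gave 3 lower in goblet-like (5.55%), 4 lower in enterocyte-like (7.8%) and 2 lower in cycling-like cells (5.21%). It gave 1 higher in tuft-like (9.45%) and 0 higher in stem-like cells (6.45%). More were called lower in Paneth-like cells (6 against 4, with 8.2% of all genes) and in stem-like cells (3 against 2, with 6.67%). Averaging over cells gave 1 higher in Paneth-like (10.3%), 0 higher in tuft-like (11.7%), and 2 higher (8.74%) and 4 lower (9.29%) in stem-like cells. Without the 5% highest Scrublet scores, 1 was called higher in tuft-like (9.41%) and 2 in stem-like cells (6.74%). Variance stabilization gave 1 higher in tuft-like (10.0%), 0 higher (7.35%) and 1 lower (8.12%) in stem-like, and 1 lower in cycling-like cells (4.94%).

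The members' share of UMIs, WT first, moved with each cell thinned to 3000 UMIs to 0.753% in the whole WT library, 1.09% and 0.965% in goblet-like, 0.378% and 0.390% in Paneth-like, 0.744% and 0.680% in tuft-like, 0.700% and 0.635% in enterocyte-like, 0.505% and 0.494% in stem-like, and 0.725% and 0.660% in cycling-like cells. With variance stabilization it was 1.16% and 1.02% in goblet-like, 0.328% in WT Paneth-like, 0.741% in Tipe0-/- tuft-like, 0.699% and 0.641% in enterocyte-like, 0.501% and 0.480% in stem-like, and 0.803% and 0.754% in cycling-like cells. Without mitochondrial and the 20 most abundant genes, a setting chosen after seeing the data, it was 1.01% and 0.919% in the whole libraries, 1.24% and 1.10% in goblet-like, 0.805% and 0.743% in Paneth-like, 0.940% and 0.839% in tuft-like, 1.04% and 0.947% in enterocyte-like, 0.606% and 0.604% in stem-like, and 0.920% and 0.868% in cycling-like cells. Members under 50 UMIs in a comparison, such as Derl3 within classes, were too shallow to compare.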

Other observations

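The unnamed cluster, led by Akr1c19, Lrg1 and Gsdmc3 (143 WT and 74 Tipe0-/- cells), gave 0.958% of its WT and 0.883% of its Tipe0-/- UMIs to the 42 genes, and lymphocyte-like cells gave 0.611% and 0.618%.

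The other ER and secretory pathway genes also separated the goblet-like clusters, with 23 of 105 called higher and 1 called lower in cluster 7 against cluster 0, where 10.2% and 8.78% of all genes were. Of 19 genes of ER to Golgi transport, 7 were called higher and 0 lower. In enterocyte-like cluster 5 against cluster 1, 11 of 103 were called higher and 5 lower, no more than the 11.8% and 12.4% of all genes, and Fkbp11, a peptidyl-prolyl isomerase, had log2 ratios of 2.73 in WT and 2.61 in Tipe0-/-.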
